A study of Mus musculus with 6 samples.

Results

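The p38 branch of the mitogen-activated protein kinase (MAPK) cascade was examined in primary mouse osteoblasts exposed to the complement fragment C5a. It was taken as 10 genes: the MAPK kinases Map2k3, Map2k6 and Map2k4, the p38 MAPKs Mapk11, Mapk12, Mapk13 and Mapk14, and the MAPK-activated protein kinases Mapkapk2, Mapkapk3 and Mapkapk5. The genes were listed by name as members of the branch, with earlier results of these data known. Each of the 10 was read by 1 probeset whose platform annotation names that gene alone, out of 19938 genes measured in this way. Bone-forming cells were grown from the long bone diaphyses of 3 wild-type male C57BL6/J mice aged 8 to 12 weeks, at passage 2 to 3, and were kept in osteogenic medium for 14 days. On the next day the cells of each mouse were split, and 1 culture stayed unstimulated in normal proliferation medium for 4 h while the other received 100 ng/ml recombinant murine C5a for 4 h. No genetic change or other agent distinguished the groups, and each of the 6 cultures was measured on 1 array. The culture numbers 2, 4 and 5 of the sample titles recur in both groups and were taken as the numbers of the mice. The comparison asked which transcripts differed between the C5a and the unstimulated culture of the same mouse.

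MAPK cascades pass a signal through kinases arranged in tiers, in which a MAP3K phosphorylates a MAP2K and the MAP2K phosphorylates a MAPK. Map2k3 (MKK3) and Map2k6 (MKK6) are the dedicated activators of p38, while Map2k4 (MKK4) can act on both p38 and JNK. Active p38 phosphorylates transcription factors and the MAPKAP kinases, of which Mapkapk2 (MK2) and Mapkapk3 (MK3) act on the small heat shock protein HSP27 and on tristetraprolin, and so set the stability of mRNAs with AU-rich elements. In bone, p38 signalling is known for its part in osteoblast differentiation. The branch is switched mainly by phosphorylation, which an array of transcripts does not measure.

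The 6 arrays were on 1 scale, with medians of 5.89 to 5.93 on the log2 scale. Levels are given as deposited log2 intensities and were not compared between genes, since probesets differ in brightness. The 9 measured osteoblast markers had a mean level of 9.92 to 11.5 in unstimulated and 9.82 to 11.4 in C5a cultures, and Col1a1, the main collagen of bone, lay between 13.3 and 13.8. The cultures were not pure. The 16 markers of macrophages and osteoclasts had mean levels of 9.73, 10.1 and 6.48 in the unstimulated cultures of mice 2, 4 and 5, and of 9.41, 9.63 and 6.60 in their C5a cultures, so that the cells of mouse 5 had far less of this signal. With C5a, 15 of the 16 were lower, at a median difference of -0.19, but 0 passed the thresholds given below. Their median was -0.33, -0.46 and 0.14 within mice 2, 4 and 5. Of the 16, 4 were lower in all 3 mice, beside 17.7% of all probesets. Without adjustment, 5 had a p under 0.05 by limma with a lower level, against 8.58% of all probesets. The 8 markers of skeletal and smooth muscle averaged 8.29 to 9.13 unstimulated and 8.89 to 9.26 with C5a. Of these, 3 (Des, Tagln and Cnn1) passed the methods' thresholds upwards, as did 1.71% of all probesets. Like the later markers of this paragraph, they were named after their values were seen. Of the 8, 5 were above 0, at a median difference of 0.28, while Myog, Ckm and Myh11 stood at -0.01, -0.02 and -0.16. Of the adipocyte, chondrocyte and endothelial lists, with 6 genes each, 1 (Lpl), 1 (Sox9) and 0 genes passed downwards and 0 upwards. Over all probesets 1.57% passed downwards. Of the 9 osteoblast markers 0 passed, at a median difference of -0.04 with 3 above 0. Lower in all 3 mice were 4 of them, beside 17.7% of all probesets. Without adjustment, 2 (Ibsp at -0.43 and Phex at -0.42) had a p under 0.05 by limma with a lower level, against 8.58% of all probesets. The part of other cell types in the differences below was not tested, and in bulk cultures fewer cells of a type and less RNA per cell cannot be told apart.

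Within the p38 branch, the 2 dedicated MAP2Ks differed in opposite directions. Map2k3 was 1.68-fold higher with C5a and Map2k6 2.09-fold lower, both in 3 of 3 mice. Of the 4 p38 isoform genes, Mapk11 was 1.28-fold higher in 3 of 3 mice, and the other 3 had log2 differences of -0.07 to 0.06, with Mapk14, which encodes the main isoform p38α, at 0.04. Mapkapk2 and Mapkapk3 were higher in mice 2 and 5 and slightly lower in mouse 4. At an adjusted p under 0.05 (limma with the mouse as a block, Benjamini-Hochberg over all 35556 probesets), 0 of the 10 genes passed, as did 0.0112% of all probesets, or 4. Without adjustment, 2 of the 10 genes (Map2k3 and Mapk11) had a p under 0.05 with a higher level, against 7.61% of all probesets, and 1 (Map2k6) with a lower level, against 8.58%, or 16.2% in both directions.

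The study's methods set the thresholds at 0.05 for the unadjusted p and at 1.5 for the fold change. By these, Map2k3 passed upwards, as did 1.71% of all probesets. Map2k6 passed downwards, as did 1.57%. In both directions together the share was 3.28%. Across the 10 genes the median log2 difference was 0.19 and 8 were above 0, beside a median of 0.01 and 52.5% above 0 over all probesets. The shares over all probesets include the 12146 that name no gene. Over the 19938 genes with 1 probeset each, the median was -0.01 and 47.9% were above 0. Of these genes, 443 met the methods' thresholds upwards and 440 downwards. Their groups did not overlap for 1729 upwards and 1983 downwards. Within mice 2, 4 and 5, the median over the 10 was 0.30, -0.01 and 0.09. The lowest C5a culture lay above the highest unstimulated culture for 3 of the 10 (Map2k3, Map2k4 and Mapk11), which held for 7.89% of all probesets. The reverse held for Map2k6 and for 7.29% of all probesets, and 15.2% did not overlap in either direction.

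**Figure D1:**
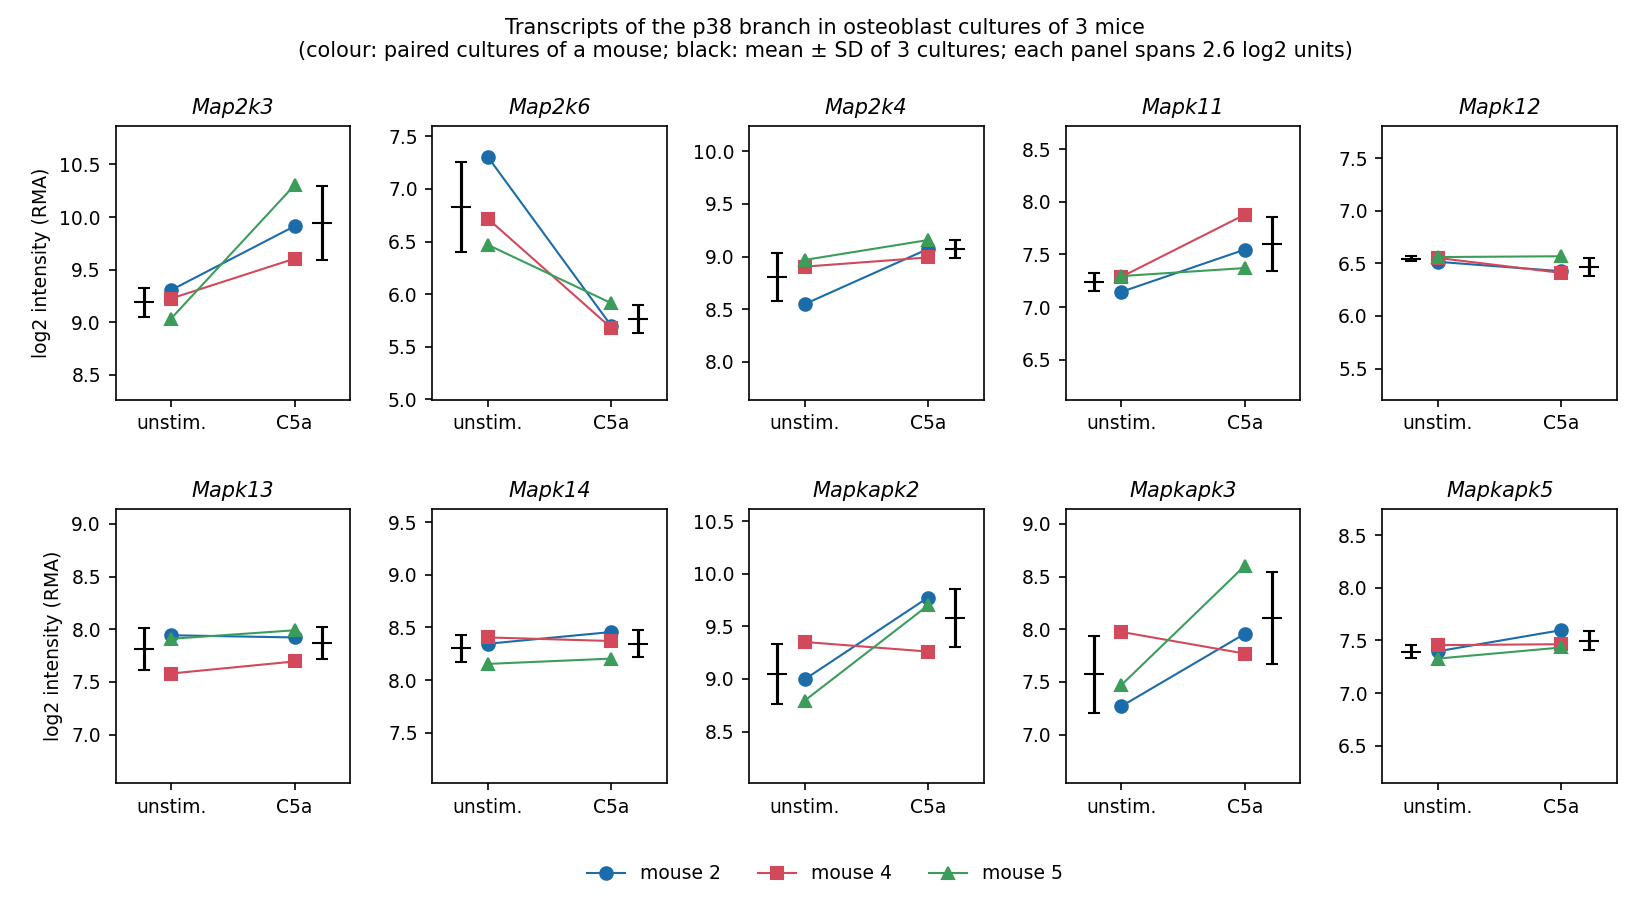
Log2 intensity of each of the 10 genes in the 6 cultures, with unstimulated on the left and C5a on the right of each panel and a line joining the cultures of 1 mouse. The lines climb in all 3 mice for Map2k3, descend in all 3 for Map2k6, and run nearly level for Mapk12, Mapk13 and Mapk14.

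Map2k3 (probeset 10376733) encodes MKK3. It read 9.31, 9.23 and 9.04 in the unstimulated cultures of mice 2, 4 and 5 and 9.91, 9.60 and 10.3 in their C5a cultures. All 3 C5a cultures were above all 3 unstimulated ones, with the highest C5a value in mouse 5, the mouse with the lowest unstimulated value. The mean went from 9.19 ± 0.14 to 9.94 ± 0.35 (SD, n = 3 mice), a log2 difference of 0.75 (standard error 0.18, 95% confidence interval 0.27 to 1.23), with an adjusted p of 0.162 by limma. The differences within mice 2, 4 and 5 were 0.61, 0.38 and 1.27. Without mouse 5 the difference was 0.49, which is under 1.5-fold, and the methods' thresholds were no longer met.

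Map2k6 (probeset 10382300) encodes MKK6, the close relative of MKK3. Its levels were 7.30, 6.72 and 6.47 in the unstimulated cultures of mice 2, 4 and 5 and 5.70, 5.68 and 5.92 with C5a. The unstimulated values were spread out by mouse, whereas the C5a values lay close together and below all of them. In mice 2 and 4 the C5a value was below the median of its array, and in mouse 5 just above it. Whether a low signal with C5a limited the spread or the size of the differences was not tested. The mean went from 6.83 ± 0.43 to 5.76 ± 0.13 (SD, n = 3 mice), a log2 difference of -1.07 (standard error 0.21, 95% confidence interval -1.61 to -0.53), with an adjusted p of 0.125 by limma. Within mice 2, 4 and 5 it was lower by log2 differences of -1.60, -1.04 and -0.55, so the mouse with the highest unstimulated level also had the largest difference. Taken gene by gene, without limma's pooling of the spread over probesets, the methods' test in its paired form gave neither Map2k3 nor Map2k6 a p under 0.05, while its unpaired form did for both.

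The sequences just before the starts of these opposed genes are given as a description. Both genes lie on chromosome 11, on the plus strand, and the RefSeq tables hold 1 start for Map2k3 and 3 for Map2k6 (GRCm38.p6). Each window holds the 250 bases before the start, 5′ to 3′, and the capitals mark the motifs found on either strand, namely the GC box (GGGCGG), the CCAAT box (CCAAT) and the TATA box (TATAAA).
Map2k3, chr11:60931804-60932053: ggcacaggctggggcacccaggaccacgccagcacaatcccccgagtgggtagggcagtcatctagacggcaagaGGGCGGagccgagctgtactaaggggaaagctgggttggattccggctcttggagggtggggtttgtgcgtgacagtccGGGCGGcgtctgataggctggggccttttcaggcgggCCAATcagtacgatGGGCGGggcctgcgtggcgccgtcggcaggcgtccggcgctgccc
Map2k6 first start, chr11:110398852-110399101: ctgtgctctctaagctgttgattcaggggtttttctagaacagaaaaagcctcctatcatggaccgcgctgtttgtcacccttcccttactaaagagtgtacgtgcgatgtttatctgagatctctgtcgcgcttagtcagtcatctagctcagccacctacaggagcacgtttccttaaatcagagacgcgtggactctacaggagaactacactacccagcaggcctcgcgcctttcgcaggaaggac
Map2k6 next start, chr11:110478265-110478514: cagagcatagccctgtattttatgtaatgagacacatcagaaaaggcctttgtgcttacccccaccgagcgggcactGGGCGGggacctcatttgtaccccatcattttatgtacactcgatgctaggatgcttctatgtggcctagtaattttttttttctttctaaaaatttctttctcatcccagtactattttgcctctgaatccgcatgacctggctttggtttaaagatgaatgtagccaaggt
Map2k6 last start, chr11:110479090-110479339: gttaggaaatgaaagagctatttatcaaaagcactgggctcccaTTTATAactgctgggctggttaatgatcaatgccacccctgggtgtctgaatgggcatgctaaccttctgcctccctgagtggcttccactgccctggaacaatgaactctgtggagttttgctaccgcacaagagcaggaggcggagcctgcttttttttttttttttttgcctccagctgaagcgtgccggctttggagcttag

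The Map2k3 window had a GC content of 67.6%, 3 GC boxes and 1 CCAAT box. Genes that were nearly level with C5a also had GC-rich windows. Mapk13 had a GC content of 76.0% with 4 GC boxes, and the first Mapk14 window 70.4%, beside 48.4% in its other window. The Map2k6 windows had GC contents of 50.4%, 43.2% and 49.2%, beside a median of 52.4% and quartiles of 45.2% and 61.2% over all 32851 windows, with no match in the first, 1 GC box in the next and 1 TATA box in the last. Over the 15 windows of the 10 genes, a GC box stood in 6 windows of 6 genes (Map2k3, Map2k6, Mapk11, Mapk12, Mapk13 and Mapk14), and in 32.7% of all windows. A CCAAT box stood in 3 windows (33.8% of all), a TATA box in 1 (12.4% of all) and an E-box (CACGTG) in 2 (6.02% of all). The AP-1 site TGACTCA, the cyclic AMP response element TGACGTCA and the EGR site GCGTGGGCG were found in none of the 15 windows, and in 4.46%, 1.55% and 0.536% of all windows. These matches are descriptions of letters in short windows and carry no information on binding. Whether the sequences bear on the direction of change was not tested.

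Map2k4 (probeset 10387014) encodes MKK4. It read 8.55, 8.90 and 8.97 in the unstimulated cultures of mice 2, 4 and 5 and 9.07, 8.99 and 9.16 with C5a. The groups did not overlap, but the unstimulated cultures of mice 4 and 5 lay just below the lowest C5a value, and the difference was widest in mouse 2. Its log2 difference was 0.27 (95% confidence interval -0.01 to 0.55) with an adjusted p of 0.335 by limma, and the differences within mice 2, 4 and 5 were 0.52, 0.09 and 0.19.

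**Figure D2:**
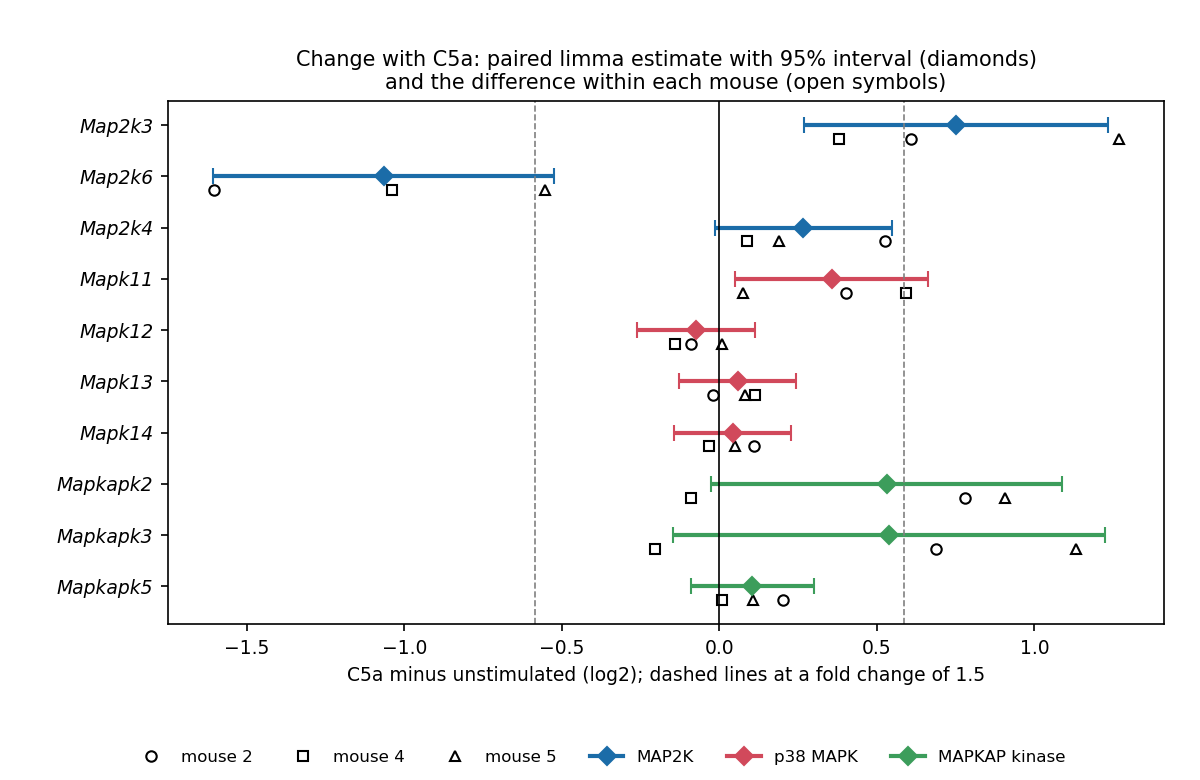
Log2 difference, C5a minus unstimulated, of each of the 10 genes with its 95% confidence interval from limma with the mouse as a block, and the difference within each mouse as a point. The intervals of Map2k3 (0.27 to 1.23), Map2k6 (-1.61 to -0.53) and Mapk11 (0.05 to 0.66) exclude 0, and the other 7 include it.

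Among the p38 MAPKs, Mapk11 (probeset 10431410, p38β) had the largest difference. Its unstimulated levels were 7.14, 7.29 and 7.29 in mice 2, 4 and 5, and its C5a levels were 7.55, 7.88 and 7.37. All C5a cultures were above all unstimulated ones, though by little in mouse 5. This was a log2 difference of 0.36, or 1.28-fold (95% confidence interval 0.05 to 0.66, unadjusted p = 0.0308 and adjusted p = 0.248 by limma), with 0.40, 0.59 and 0.08 within mice 2, 4 and 5.

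Mapk14 (probeset 10443391, p38α) read 8.34, 8.40 and 8.15 in the unstimulated cultures of mice 2, 4 and 5 and 8.46, 8.37 and 8.20 with C5a. The groups overlapped, and mouse 5 was the lowest in both. The log2 difference was 0.04 (95% confidence interval -0.14 to 0.23), an interval that leaves out a 1.5-fold difference in either direction. Mapk13 (probeset 10443408, p38δ) lay between 7.58 and 7.94 unstimulated and between 7.69 and 7.99 with C5a, a difference of 0.06 (-0.13 to 0.24). Mapk12 (probeset 10431393, p38γ) lay between 6.51 and 6.56 unstimulated and between 6.41 and 6.57 with C5a, a difference of -0.07 (-0.26 to 0.11). The adjusted p of these 3 genes by limma ran from 0.735 to 0.873. The sign of Mapk13 and Mapk14 turned when single arrays were left out.

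The 4 p38 genes stand in 2 neighbouring pairs. Mapk11 and Mapk12 are next to each other on chromosome 15, and Mapk14 and Mapk13 on chromosome 17. The neighbours Mapk14 and Mapk13 had differences of 0.04 and 0.06, whereas Mapk11 and Mapk12 had differences of 0.36 and -0.07. Whether the neighbours differed from each other in their response was not tested.

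The MAPKAP kinases that act on tristetraprolin gave 1 common pattern. Mapkapk2 (probeset 10357579, MK2) read 8.995, 9.35 and 8.79 in the unstimulated cultures of mice 2, 4 and 5 and 9.77, 9.26 and 9.70 with C5a. The C5a cultures of mice 2 and 5 were the highest, and mouse 4 had the highest unstimulated and the lowest C5a value, so the groups overlapped. The log2 difference was 0.53 (95% confidence interval -0.03 to 1.09), with an adjusted p of 0.332 by limma, and the differences within mice 2, 4 and 5 were 0.78, -0.09 and 0.91.

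Mapkapk3 (probeset 10596637, MK3) read 7.27, 7.97 and 7.47 unstimulated and 7.96, 7.77 and 8.60 with C5a in mice 2, 4 and 5. Mouse 4 again had the highest unstimulated and the lowest C5a value. The log2 difference was 0.54 (95% confidence interval -0.15 to 1.23), with an adjusted p of 0.430 by limma, and the differences within mice 2, 4 and 5 were 0.69, -0.21 and 1.13. When mouse 4 was left out, Mapkapk2 and Mapkapk3 met the methods' thresholds at differences of 0.84 and 0.91 (adjusted p = 0.0949 and 0.111 by limma). Without mouse 5 their differences were 0.34 and 0.24.

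Mapkapk5 (probeset 10533327), which encodes the more distant relative MK5, lay between 7.33 and 7.45 unstimulated and between 7.43 and 7.60 with C5a. It was higher in 3 of 3 mice, but by 0.20, 0.01 and 0.11, and the groups overlapped. Over the 3 mice the log2 difference was 0.11 (95% confidence interval -0.09 to 0.30). With it, 4 of the 10 genes were higher in all 3 mice (Map2k3, Map2k4, Mapk11 and Mapkapk5) and 1 was lower in all 3 (Map2k6), beside 18.3% and 17.7% of all probesets, or 36% in either direction.

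**Figure D3:**
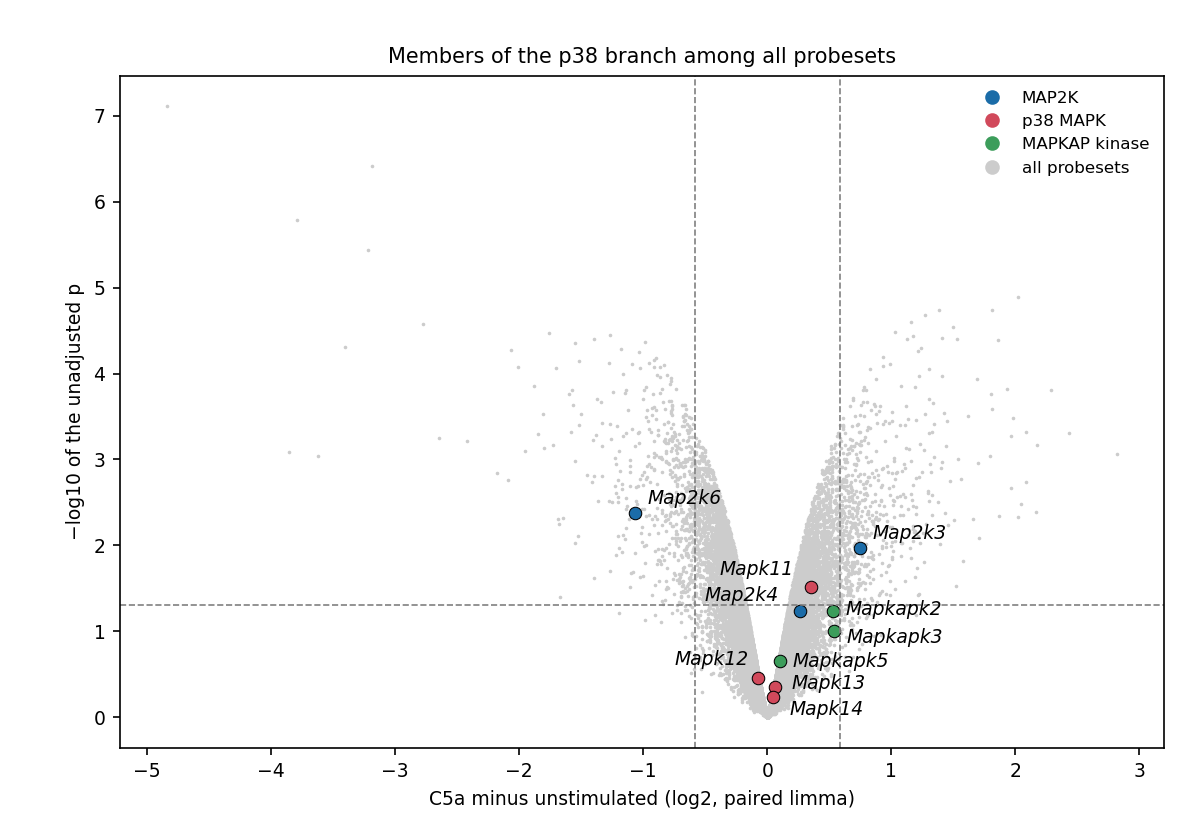
Log2 difference, C5a minus unstimulated, on the x axis against the −log10 of the unadjusted p by limma on the y axis, for all 35556 probesets in grey and the 10 genes in colour by role. Dashed lines mark a fold change of 1.5 and a p of 0.05, and Map2k3 and Map2k6 are the 2 of the 10 genes beyond them.

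How far the genes varied between mice was set beside the C5a difference, as a description. The spread between mice was taken as the range over mice of the mean of both cultures. It was 0.31 for Map2k6 beside a C5a difference of 1.07 in size, and 0.25 for Map2k3 beside 0.75. For Mapk11 it was 0.25 beside 0.36, for Map2k4 0.25 beside 0.27, for Mapkapk2 0.14 beside 0.53 and for Mapkapk3 0.42 beside 0.54. The C5a difference was thus larger than this range of means for these 6 genes. It was the smaller for Mapk14 (0.04 beside a spread of 0.22), Mapk13 (0.06 beside 0.31), Mapk12 (0.07 beside 0.09) and Mapkapk5 (0.11 beside 0.12). Averaging both cultures can even out opposite extremes, as in mouse 4 for Mapkapk2 and Mapkapk3. The unstimulated cultures alone ran from 8.79 to 9.35 for Mapkapk2, 7.27 to 7.97 for Mapkapk3 and 8.55 to 8.97 for Map2k4. Each of these spans was wider than the C5a difference of its gene. The culture set of mouse 5 had few macrophage markers and also the lowest mean level of the osteoblast markers. That level was 9.92 unstimulated, beside 10.8 and 11.5 in mice 2 and 4. Mouse 5 had the largest difference of the 3 mice for Map2k3, Mapkapk2 and Mapkapk3 and the smallest for Map2k6 and Mapk11. The part of the macrophage or osteoblast content in these values was not tested.

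**Figure D4:**
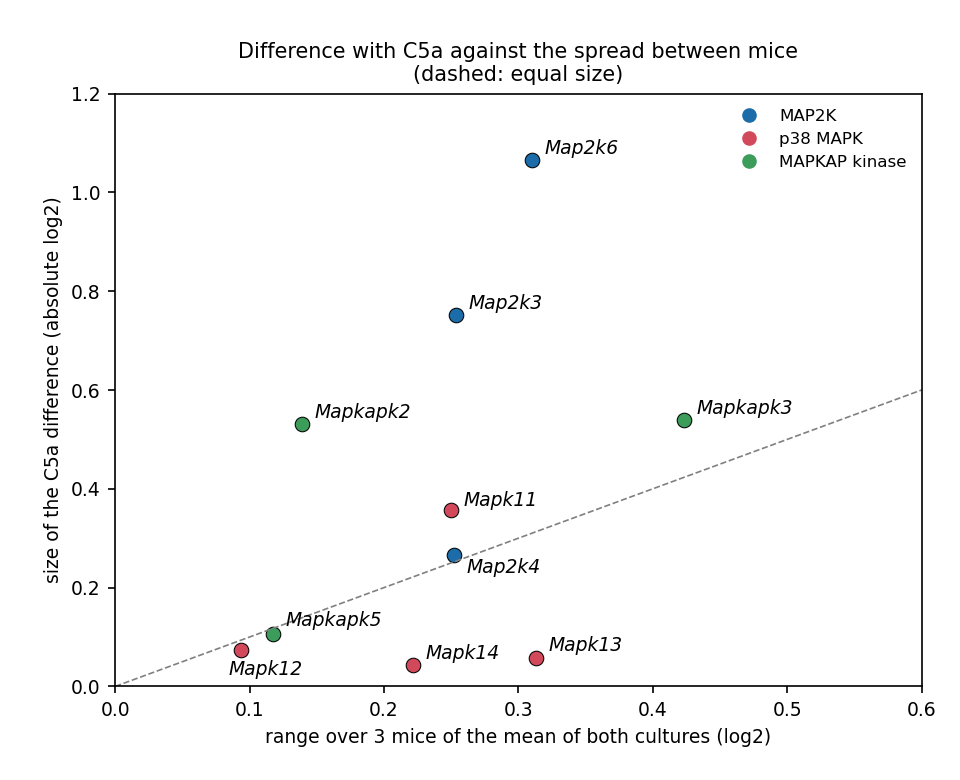
Size of the C5a difference on the y axis against the range between mice of the mean of both cultures on the x axis, both in log2 units, with 1 point per gene. Points above the diagonal have a C5a difference larger than this range, which holds for 6 of the 10 genes. Averaging both cultures of a mouse can even out opposite extremes.

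The genes around the branch were read from fixed lists, by the same fit. The lists were chosen with earlier results of these data known. Beside the counts of each list, 1.71% of all probesets met the methods' thresholds upwards and 1.57% downwards. Of 18 kinases and adaptors upstream of p38, 0 met the methods' thresholds, at a median log2 difference of 0.06 with 11 above 0. The 3 with the smallest p were Map3k12 at -0.55 (adjusted p = 0.139 by limma), the p38 activator Map3k4 at 0.51 (0.193) and Map3k6 at 0.55 (0.261), and each was under 1.5-fold. Another probeset of Map3k12 gave -0.29, with overlapping groups.

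Among 12 phosphatases that can act on p38, 1 met the methods' thresholds downwards and 1 upwards, at a median of -0.00. Dusp1, an early-induced phosphatase of p38 and JNK, read 13.7, 13.4 and 13.4 in the unstimulated cultures of mice 2, 4 and 5 and 11.8, 10.3 and 12.1 with C5a. Every C5a culture was far below every unstimulated one. Dusp1 thus had a log2 difference of -2.09 (standard error 0.33, adjusted p = 0.108 by limma), which is 4.27-fold lower. Dusp10 (MKP-5), which prefers p38 and JNK and was named here after its values were seen, read 9.16, 7.93 and 7.40 unstimulated and 10.1, 8.22 and 9.87 with C5a. The groups overlapped while each mouse was higher with C5a, and the difference of 1.22 (standard error 0.43, adjusted p = 0.265 by limma) met the methods' thresholds with the mouse as a block. It did not without the block (unadjusted p = 0.106) or when mouse 2 was left out, and without mouse 5 the difference was 0.60. Dusp8 at -0.45 (adjusted p = 0.111) and Ppm1d (Wip1) at -0.28 (adjusted p = 0.207) were under 1.5-fold, and another probeset of Dusp8 gave -0.12.

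Of 19 measured substrates of p38 or of its effector kinases, 5 met the methods' thresholds downwards and 1 upwards, at a median of -0.11. Over all probesets the shares were 1.57% and 1.71%. Zfp36, which encodes tristetraprolin, the mRNA-destabilising target of MK2, read 12.2, 11.6 and 11.8 unstimulated and 8.93, 8.60 and 8.48 with C5a in mice 2, 4 and 5. The groups were far apart and the 3 mice differed little from each other in their response. With a difference of -3.19 (standard error of 0.08, limma adjusted p = 0.00685), it fell past the adjusted threshold, as did no other gene of the 6 pathway lists. Its adjusted p was 0.160 without mouse 2, 0.0372 without mouse 4 and 0.164 without mouse 5. Its relative Zfp36l1 stood at -1.26 (adjusted p = 0.0902) and Hspb1, which encodes HSP27, at 0.58 (adjusted p = 0.0878), just under 1.5-fold, with another probeset at 0.57. The others that met the methods' thresholds, named after their values were seen, were Mknk1 (-0.77), Ddit3 (-0.76), Mef2c (-0.69) and Pla2g4a (0.59). Pla2g4a, close to 1.5-fold, did not meet them without the block, without mouse 2 or without mouse 4.

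Of 14 transcripts with AU-rich elements, 2 met the methods' thresholds upwards and 1 downwards, at a median of -0.00. Plaur, the urokinase receptor, had a difference of 1.18 (adjusted p = 0.137 by limma), Hmox1 of 0.61 (0.119) and Ier3 of -2.07 (0.0704). Cxcl10, an interferon-induced chemokine, had differences of 0.81, -1.07 and -0.03 within mice 2, 4 and 5, so that the mice did not share a direction, and its difference of -0.10 over all mice became 0.39 without mouse 4. The median of the list within mice 2, 4 and 5 was 0.34, -0.67 and 0.13, with mouse 4 apart from the other animals, as it was for Mapkapk2 and Mapkapk3. Single genes departed from these medians. Plaur (0.50) and Hmox1 (0.73) were higher in mouse 4, and Ier3 (-2.49) and Cxcl10 (-0.03) were lower in mouse 5. A relation between the list and the 2 kinases was not tested.

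The other MAPK branches served as comparison. In the JNK branch 0 of 7 measured genes met the methods' thresholds, at a median of -0.01, and the smallest p was that of Mapk9 (JNK2) at 0.19 (adjusted p = 0.285 by limma), followed by Spag9 at 0.17 and Mapk8ip1 at -0.19. In the ERK and atypical branch 1 of 8 did, at a median of 0.07. This was Mapk6 (ERK3), which read 9.83, 10.05 and 9.80 unstimulated and 10.7, 10.1 and 10.7 with C5a in mice 2, 4 and 5. It was nearly level in mouse 4, at a difference of 0.05 beside 0.91 and 0.93 in mice 2 and 5. Over all mice its difference was 0.63 (adjusted p = 0.230 by limma). Map2k5 stood at -0.30 and Nlk at 0.12. Whether the branches differed from the p38 branch was not tested.

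**Figure D5:**
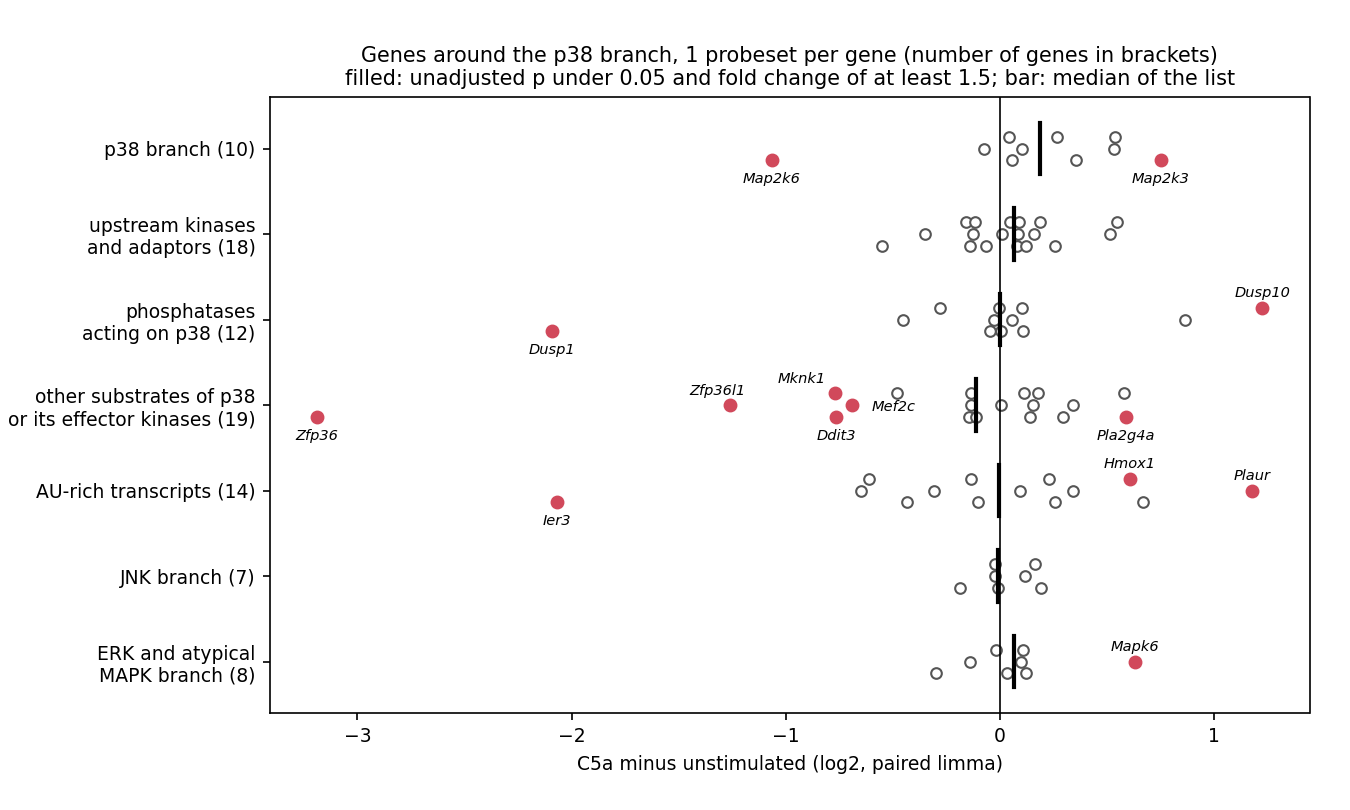
Log2 difference, C5a minus unstimulated, of every measured gene of the p38 branch and of 6 lists around it, with 1 point per gene, a bar at the median, and filled points for genes that met the methods' thresholds. The p38 branch has its filled points on either side of 0, at -1.07 and 0.75, and Zfp36 lies farthest out at -3.19.

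The genes most like Map2k6, the gene of the 10 with the smallest p, were sought over the 6 arrays among 6129 genes with an SD of at least 0.2. The highest Pearson correlations were those of Eya4 (0.994), Ptchd1 (0.993) and Acaa2 (0.992). All were lower with C5a in 3 of 3 mice, at log2 differences of -0.73, -0.41 and -0.60. The 6 arrays come from 3 mice and share the treatment contrast, so these values describe likeness only.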

How the data were processed

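Total RNA of the 6 cultures was measured by the authors on Affymetrix Mouse Gene 1.0 ST arrays. Affymetrix Expression Console and BRB-ArrayTools served for the image analysis, and the authors deposited log2 intensities per probeset from the robust multiarray average. Program versions, and whether other arrays were normalised together with these, are not given in the sources used here. The number of arrays limits the precision.

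The 35556 probesets were compared with limma 3.58.1 in R 4.3.3 (lmFit, eBayes), without a filter, with the mouse as a fixed block and Benjamini-Hochberg adjustment over all probesets. The cultures were paired by the number in the sample titles, which the titles do not explain. It was taken as the mouse, since the deposited design text has the cells of each mouse in both groups. Deviations from the group means correlated at 0.495 to 0.684 within a mouse and at -0.446 to -0.035 between mice. The methods name a t-test without stating pairing, and their fold change threshold was read as at least 1.5. Of the probesets, 21789 name 1 gene, 1621 several and 12146 none. The highest-mean probeset stood for a gene.

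The 10 genes and the 12 lists (138 entries, 129 measured) were chosen with earlier results of these data known. Named were the 10 genes, at most 3 genes per pathway list with the smallest p, 3 genes most like the leading one, and Dusp1, Zfp36 and Cxcl10. Any other gene is said to be named after its values were seen, except Col1a1, given as a check of the cell type. Some list entries are not reported here. The steps were tested on simulated data. Alternatives were the fit without the block, the methods' t-test and its paired form, robust estimation with a trend in the variance, leaving out probesets with means under the 40th percentile, probesets naming 1 gene only, median centring, quantile normalisation, the probeset with the largest SD or the mean over the probesets of a gene, and leaving out each mouse or array. Promoter sequences are from RefSeq (GRCm38.p6), and all 10 genes matched by symbol.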

Additional observations from a re-analysis of the deposited data

How the results depend on the processing

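None of the 10 genes passed an adjusted p of 0.05 under any of the 19 alternatives, and all 10 but Mapk13 and Mapk14 kept their sign throughout. The methods' thresholds were met by Map2k6 in 18 of the 19 (log2 difference -1.32 to -0.80, adjusted p 0.0517 to 0.557) and by Map2k3 in 16 (0.49 to 0.94, adjusted p 0.0758 to 0.582). Without the replicate block the adjusted threshold was passed by 5 probesets against 4 with it, and the methods' thresholds by 923 against 1166. The numbers were 0 and 2 for the 10 genes, as with the block, and 1 and 10 for the pathway lists against 1 and 12.

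Adjusted calls depended on the probesets and test: 373 with the 40th-percentile filter, 795 with probesets naming 1 gene only, and 0 by the methods' t-test and by the paired t-test. For the pathway lists they were 6, 9, 0 and 0, and 8 with the mean over probesets. The methods' thresholds were met by 665 probesets with the methods' t-test and 517 with the paired t-test, by 7 and 5 pathway genes, and by 2 and 0 of the 10 genes. Leaving out 1 mouse gave 0 to 3 adjusted and 885 to 1754 threshold calls over all probesets, 1 (without mouse 5) to 4 (without mouse 4) of the 10 genes, and 0 to 1 adjusted and 10 to 17 threshold calls in the pathway lists.

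Leaving out single arrays without the block, an alternative chosen after seeing the data, gave 0 to 2 adjusted and 701 to 1314 threshold calls, 1 to 4 of the 10 genes, and 0 adjusted and 8 to 15 threshold calls in the pathway lists. There Mapk13 turned to -0.0574 and -0.0025 and Mapk14 to -0.0312 and -0.0137, and Cxcl10 to 0.28, 0.0032 and 0.23, while leaving out 1 mouse gave Cxcl10 -0.55 to 0.39. Of the other named genes, Zfp36 kept its adjusted call under 9 of the 19 alternatives (adjusted p 0.000627 to 0.496). The cause of these shifts was not tested.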
